A study of Homo sapiens with 6 samples.

Results

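The nuclear pore and nuclear transport genes described here are 47 of the 23368 gene symbols in a count table from HCT116 cells, a human colon cancer line. They were chosen by a rule on symbols, set with earlier results of these data known. Those named NUP with a number, together with TPR and RANBP2, make up 22 nucleoporins. Those named KPN, IPO, XPO or TNPO make up 24 transport receptors, and RAN stands apart from both classes. The groups are siADNP, cells given an siRNA that targets ADNP (a zinc finger protein of chromatin), and siControl, cells given a control siRNA. Each has 3 libraries. All 6 libraries share the line and a Nugen kit for total RNA. The sources used here do not give siRNA sequences, doses or times. The submitters call the samples of a group biological replicates without naming separate cultures, so the p-values rest on a spread that may be technical.

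The nuclear pore complex is the channel through which proteins and RNA cross the nuclear envelope. Its scaffold rings hold disordered nucleoporins rich in phenylalanine-glycine (FG) repeats in the central channel, and filaments and a basket extend from its cytoplasmic and nuclear faces. Transport receptors bind cargo and FG repeats, and the GTPase RAN sets direction: importins release cargo when RAN-GTP binds, while exportins need RAN-GTP to hold theirs.

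Below are the 250 bases upstream of the start site for the called rise and the called fall with the smallest p in each class, from RefSeq on GRCh38.p14, read 5′ to 3′ on the strand of the gene. They are shown so that the genes that moved most clearly can be set side by side. Capitals mark every match, on either strand, to one of 8 searched motifs. The motifs were the GC box (GGGCGG), the CCAAT box (CCAAT), the ETS core (CCGGAAG), the E-box (CACGTG), the NRF1 core (CGCATGCG), the YY1 core (AAGATGGCG), the CRE (TGACGTCA) and the TATA box (TATAAA). 
NUP210 (higher, chr3:13420323-13420572, minus strand): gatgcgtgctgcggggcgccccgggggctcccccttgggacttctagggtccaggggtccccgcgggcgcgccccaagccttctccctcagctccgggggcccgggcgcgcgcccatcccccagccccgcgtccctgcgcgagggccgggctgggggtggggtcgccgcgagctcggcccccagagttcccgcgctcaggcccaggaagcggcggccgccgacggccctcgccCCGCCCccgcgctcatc
NUP85 (lower, chr17:75205429-75205678, plus strand): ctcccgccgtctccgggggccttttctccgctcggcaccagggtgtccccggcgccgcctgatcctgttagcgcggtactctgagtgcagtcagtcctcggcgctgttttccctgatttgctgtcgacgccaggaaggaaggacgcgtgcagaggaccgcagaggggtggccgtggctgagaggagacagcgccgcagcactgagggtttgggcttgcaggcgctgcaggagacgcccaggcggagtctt
IPO11 (higher, chr5:62412513-62412762, plus strand, the first of its 2 start sites): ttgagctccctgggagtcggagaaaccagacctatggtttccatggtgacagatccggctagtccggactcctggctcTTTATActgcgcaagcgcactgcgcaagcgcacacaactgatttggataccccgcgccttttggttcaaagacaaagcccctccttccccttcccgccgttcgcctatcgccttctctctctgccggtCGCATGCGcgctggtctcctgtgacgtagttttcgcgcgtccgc
IPO7 (lower, chr11:9384402-9384651, plus strand): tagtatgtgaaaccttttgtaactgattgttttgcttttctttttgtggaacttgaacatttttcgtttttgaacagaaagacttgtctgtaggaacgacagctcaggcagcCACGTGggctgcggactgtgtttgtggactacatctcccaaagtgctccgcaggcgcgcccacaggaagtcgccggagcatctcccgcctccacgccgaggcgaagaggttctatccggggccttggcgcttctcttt
The NUP210 window was 80.8% GC and held 1 GC box, at bases 234 to 239 from its first base, on the opposite strand. The NUP85 window was 66.8% GC and matched none of the 8 motifs. In the IPO11 window, at 58.8% GC, an NRF1 core lay at bases 207 to 214 and a TATA box on the opposite strand at bases 79 to 84. The IPO7 window was 51.6% GC and held an E-box at bases 113 to 118. RefSeq gave 53 such windows for 41 of the member symbols, and 35116 windows for 27305 symbols in all. The CCAAT box was in 45.3% of the member windows and in 32.0% of all windows, the ETS core in 20.8% and 8.52%, and the E-box in 15.1% and 6.34%. The GC box was in 50.9% and 42.6%, and the TATA box in 7.55% (4 windows) and 10.7%. The NRF1 core was in 7.55% (4 windows) and 1.73%, and the CRE in 5.66% (3 windows) and 1.65%. The YY1 core was in 1.89% (1 window) and 0.652%. Some shares thus rest on few windows, and a gene with several windows counted with each. The 27305 symbols also include genes outside the 12489 tested here, and no comparison was made with the windows of tested genes alone. These shares describe letters in the windows, and the median GC of the member windows (62.4%) was above that of all windows (58.0%).

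ADNP mRNA, the target of the siRNA, was at 46.7, 55.3 and 59.8 CPM under siADNP and 171, 155 and 167 CPM under siControl. The groups did not overlap, and the siADNP mean was 32.8% of the siControl mean (log2 fold change -1.61 ± 0.066 SE, adjusted p = 2.62e-20, edgeR quasi-likelihood test). CPM values, counts scaled to library size, are computed from the deposited counts with TMM scaling. Reads assigned to genes numbered 7396771 to 8726017 in the siADNP libraries and 8282290 to 10265175 in the siControl libraries, and the labels name no batch or date. Of 6 epithelial markers expected in the line, all 6 had reads, with a summed level of 3017 to 3229 CPM under siADNP and 3126 to 3190 CPM under siControl. Of 5 fibroblast markers 3 had reads, with DCN and LUM at 0 and sums of 7.32 to 10.3 and 7.38 to 8.20 CPM. Of 5 blood cell markers 4 had reads, with HBB at 0, and their summed level was 9.29 to 10.3 CPM under siADNP and 6.75 to 7.85 CPM under siControl. Nearly all of this sum was CD68, which was itself called higher (log2 fold change 0.42 ± 0.15 SE, adjusted p = 0.0366), while PTPRC, CD14 and CD3E had 0 to 7 reads a group. Among the epithelial markers KRT19 was called lower (log2 fold change -0.15 ± 0.048 SE, adjusted p = 0.0203). The part of these marker levels in the results was not tested.

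Small changes in both directions were found among the nuclear pore and transport genes after ADNP depletion. Of the 45 members with enough reads to test, 6 rose, 9 fell and 30 did not pass an adjusted p under 0.05 (edgeR, Benjamini-Hochberg over all 12489 genes tested). The 6 that rose are 13.3% of the tested members, where 14.6% of all tested genes rose. The 9 that fell are 20% of the tested members, where 13.7% of all tested genes fell. The groups did not overlap for 20 of the 45 members (44.4%), against 40.8% of all tested genes. The share that rose was near that of all genes and the share that fell was somewhat above it, a difference that was not tested. With a correction for GC content that order turned: 11.1% of the members fell, against 12.4% of all tested genes. This correction was fitted on the same 6 libraries, so it also removes any difference between the groups that follows GC content. The median log2 fold change of the tested members was -0.023, beside -0.0013 over all tested genes, and 24 of the 45 lay within 0.1 of 0. Among called members the median absolute log2 fold change was 0.19, beside 0.32 over all called genes. In this bulk measurement, fewer cells expressing a gene and less RNA per cell cannot be told apart. The table held only 9 reads of NUP210L, the paralogue of NUP210, in the siADNP libraries and 15 in the siControl libraries. KPNA7, an importin alpha, had 0 and 1. These 2 members were not tested.

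**Figure D1:**
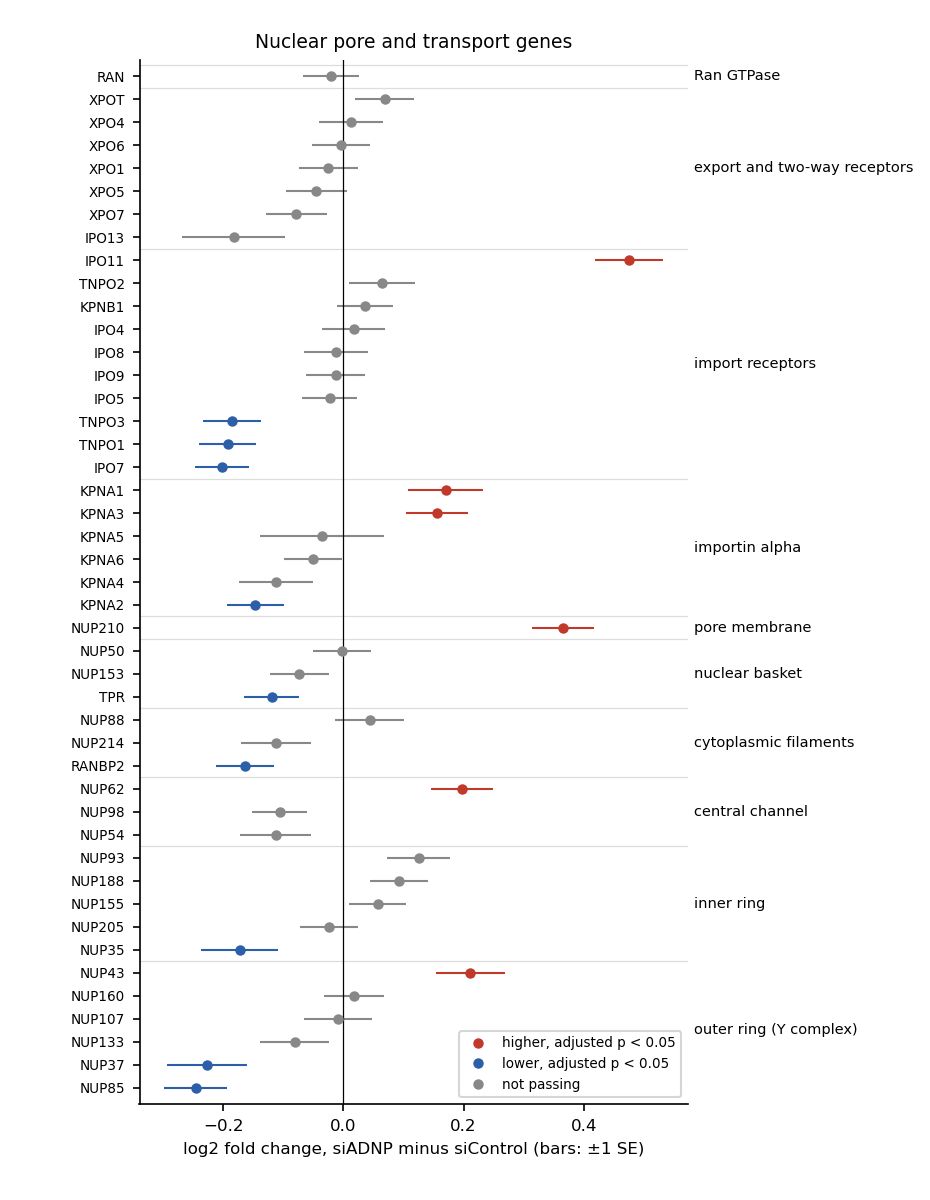
Log2 fold change, siADNP minus siControl, of the 45 tested members in order of place in the pore or kind of receptor. Bars are 1 SE, derived from the F statistic of the edgeR test (3 libraries a group). Red points rose, blue points fell and grey points did not pass the threshold. IPO11 (0.48) and NUP210 (0.37) stand to the right of all other members, and the largest fall is that of NUP85 (-0.25).

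The outer ring of the pore is built from the Y complex, a scaffold of nucleoporins on each face of the envelope. Of its 6 members within the symbol rule, 1 rose, 2 fell and 3 did not pass. Over all tested genes 14.6% rose and 13.7% fell. The counts of this and each following sublist, all of few genes, are to be read against those shares. NUP85, a core scaffold subunit, was at 125, 123 and 124 CPM under siADNP and 147, 144 and 149 CPM under siControl. The siADNP libraries lay within about 1 CPM of the group mean and all below every siControl library. With means of 124 ± 0.603 against 147 ± 2.56 CPM, SD, n = 3 each, NUP85 fell by 0.25 ± 0.05 (SE) on the log2 scale (adjusted p = 0.000392), a call kept in all 16 alternative settings. NUP37, a peripheral subunit of the same complex, was at 66.4, 55.9 and 60.5 CPM under siADNP and 71.4, 69.8 and 72.3 CPM under siControl. All siADNP libraries were below all siControl libraries, with the replicate 2 library lowest (60.9 ± 5.24 against 71.2 ± 1.27 CPM, SD, n = 3 each). NUP37 was called lower (log2 fold change -0.23 ± 0.067 SE, adjusted p = 0.00920), but not without siADNP replicate 2 (adjusted p = 0.0910), with a correction for GC content (0.0912) or with DESeq2 (0.0505). Over all alternatives its adjusted p ranged from 0.00277 to 0.0982. NUP43, another peripheral subunit, went the other way, at 112, 109 and 106 CPM under siADNP and 96.6, 97.7 and 87.8 CPM under siControl. Every siADNP library was above every siControl library (109 ± 3.00 against 94.0 ± 5.44 CPM, SD, n = 3 each). The rise of NUP43 (log2 fold change 0.21 ± 0.058 SE, adjusted p = 0.00514) was lost only without siControl replicate 3 (adjusted p = 0.0589, range over the alternatives 0.000489 to 0.0589).

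The other Y complex members within the symbol rule were NUP107, NUP133 and NUP160. NUP133 was at 87.8, 95.6 and 95.4 CPM under siADNP and 96.3, 98.8 and 100.1 CPM under siControl, so the groups stood apart by a narrow margin, and it did not pass (log2 fold change -0.081 ± 0.057 SE, adjusted p = 0.307). NUP107 (-0.0088) and NUP160 (0.018) had log2 fold changes near 0, whose sign changed in some alternative settings, and overlapping groups. SEC13 and SEH1L, Y complex subunits with symbols outside the rule, did not pass, with log2 fold changes of 0.13 and 0.11 (adjusted p = 0.0780 and 0.147). Members of 1 structural complex therefore had values from -0.25 to 0.21.

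The inner ring holds the channel nucleoporins in place at the level of the membrane. Among its 5 measured members edgeR called none higher and 1 lower, and 1 (NUP93) was higher at an unadjusted p under 0.05. DESeq2 and limma called none higher either. NUP35, which binds the pore membrane, was at 82.1, 69.5 and 74.7 CPM under siADNP and 85.8, 87.8 and 80.7 CPM under siControl. The replicate 1 library of siADNP lay inside the siControl range, while the others were below it (75.4 ± 6.30 against 84.8 ± 3.70 CPM, SD, n = 3 each). NUP35 was called lower (log2 fold change -0.17 ± 0.064 SE, adjusted p = 0.0410) with the least stable call of the set together with TPR: it was lost in 10 of 16 alternatives. Leaving out siADNP replicate 2 or 3 gave adjusted p = 0.234 and 0.107, and leaving out siControl replicate 1 or 2 gave 0.110 and 0.163. It was also lost with upper-quartile scaling (0.0862), with library totals (0.0593), with DESeq2 (0.141) and with the GC correction (0.291), within a range of 0.0107 to 0.309.

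NUP93, the organiser of the inner ring, was at 152, 148 and 161 CPM under siADNP and 145, 136 and 141 CPM under siControl. Although its groups stood apart, the difference did not pass (log2 fold change 0.13 ± 0.053 SE, adjusted p = 0.0717). It did pass with the GC correction (adjusted p = 0.0447), with library totals (0.0478), with upper-quartile scaling (0.0302) and without siADNP replicate 2 (0.0486), out of a range from 0.0302 to 0.252. NUP188, a large scaffold protein, was likewise above the siControl libraries in all 3 siADNP libraries, at 265, 281 and 281 against 258, 254 and 264 CPM, without passing (adjusted p = 0.156). NUP155 (0.057) and NUP205 (-0.024) did not pass and their groups overlapped. The sign for NUP205 changed with upper-quartile scaling and with the GC correction.

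In the central channel, FG nucleoporins form the selective barrier. NUP62, their best known member, was at 180.3, 185 and 179.8 CPM under siADNP and 167, 157 and 151 CPM under siControl. The siADNP libraries were all above the siControl range (182 ± 2.65 against 158 ± 8.04 CPM, SD, n = 3 each). NUP62 rose (log2 fold change 0.20 ± 0.052 SE, adjusted p = 0.00362), and the call was lost with the GC correction (adjusted p = 0.0974, range over the alternatives 0.00121 to 0.128). Its exons overlap those of ATF5 on the opposite strand and of IL4I1 on the same strand, and the strand setting of the counting is not given, so its count is uncertain. Exons of IPO4, NUP188, NUP88, TPR and XPO5 also overlap another gene on the opposite strand. A partner of NUP62 in the channel complex, NUP54, was at 93.8, 93.5 and 95.8 CPM under siADNP and 109.8, 101 and 95.6 CPM under siControl. With 1 siADNP library inside the siControl range, NUP54 did not pass (log2 fold change -0.11 ± 0.059 SE, adjusted p = 0.155). NUP98, an FG nucleoporin whose gene also encodes the Y complex protein NUP96, was at 398, 411 and 399.5 CPM under siADNP and 430.3, 444 and 427 CPM under siControl. All 3 siADNP libraries were lower, yet NUP98 did not pass (log2 fold change -0.11 ± 0.046 SE, adjusted p = 0.0812). Thus 1 of the 3 channel members within the symbol rule rose, where 14.6% of all tested genes rose. The values of the others were below 0. NUPL1 (NUP58), a channel nucleoporin with a symbol outside the rule, did not pass (log2 fold change -0.073 ± 0.048 SE, adjusted p = 0.273).

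On the cytoplasmic face, RANBP2 forms the filaments and carries a SUMO ligase activity. RANBP2 was at 426, 448 and 404 CPM under siADNP and 468, 475 and 489.8 CPM under siControl. The groups did not overlap (426 ± 22.4 against 477 ± 11.2 CPM, SD, n = 3 each), and RANBP2 fell (log2 fold change -0.16 ± 0.048 SE, adjusted p = 0.00897). The call was lost without siADNP replicate 3 (adjusted p = 0.0775), without siControl replicate 3 (0.0547) and with the GC correction (0.140), in a range of 0.00172 to 0.203. RANBP2 also has near-identical copies in the RGPD genes, so reads that align to several of them may be missing from its count. NUP214, an FG nucleoporin of the same face, was at 136, 116 and 124 CPM under siADNP and 135, 142 and 128 CPM under siControl. The replicate 1 library of siADNP was the highest of its group and lay among the siControl values, and the difference did not pass (log2 fold change -0.11 ± 0.058 SE, adjusted p = 0.154). Without that library it passed (adjusted p = 0.0390, range 0.0390 to 0.550). NUP88, the partner of NUP214, had overlapping groups and a log2 fold change of 0.044 that did not pass.

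The nuclear basket was represented by TPR, NUP153 and NUP50. TPR, the coiled-coil protein of the basket filaments, was at 592, 601 and 568 CPM under siADNP and 625, 650.4 and 637 CPM under siControl. All siADNP libraries lay below the siControl libraries (587 ± 17.0 against 638 ± 12.7 CPM, SD, n = 3 each). The fall of TPR was the smallest of the called changes (log2 fold change -0.12 ± 0.046 SE, adjusted p = 0.0479) and was lost in 10 of 16 alternatives. Leaving out siADNP replicate 1 or 3 gave adjusted p = 0.0695 and 0.177. Leaving out siControl replicate 1, 2 or 3 gave 0.0753, 0.182 and 0.111. It was lost as well with library totals (0.0753), upper-quartile scaling (0.123) and the GC correction (0.423), in a range of 0.0275 to 0.488. NUP153, an FG nucleoporin at the root of the basket, had overlapping groups and did not pass (log2 fold change -0.074 ± 0.049 SE, adjusted p = 0.277). NUP50, which helps to release cargo from importin alpha, was at 237, 242 and 230.3 CPM under siADNP and 242, 234 and 235 CPM under siControl. Its values were mixed between the groups (log2 fold change -0.0027, adjusted p = 0.976), and the sign changed with library totals, upper-quartile scaling and the GC correction.

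Of the integral membrane nucleoporins, the symbol rule takes NUP210 and NUP210L. NUP210, a transmembrane protein with most of its mass in the lumen of the envelope and known to vary between cell types, was at 207, 229 and 220.2 CPM under siADNP and 175, 171 and 164 CPM under siControl. The lowest siADNP library was above the highest siControl library by more than the SD of either group (219 ± 11.1 against 169.9 ± 5.22 CPM, SD, n = 3 each). NUP210 rose to 129% of control (log2 fold change 0.37 ± 0.051 SE, adjusted p = 9.32e-07), the largest change of any nucleoporin in the set, and the call held in all 16 alternatives. NUP210L stayed below 1 CPM in every library.

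**Figure D2:**
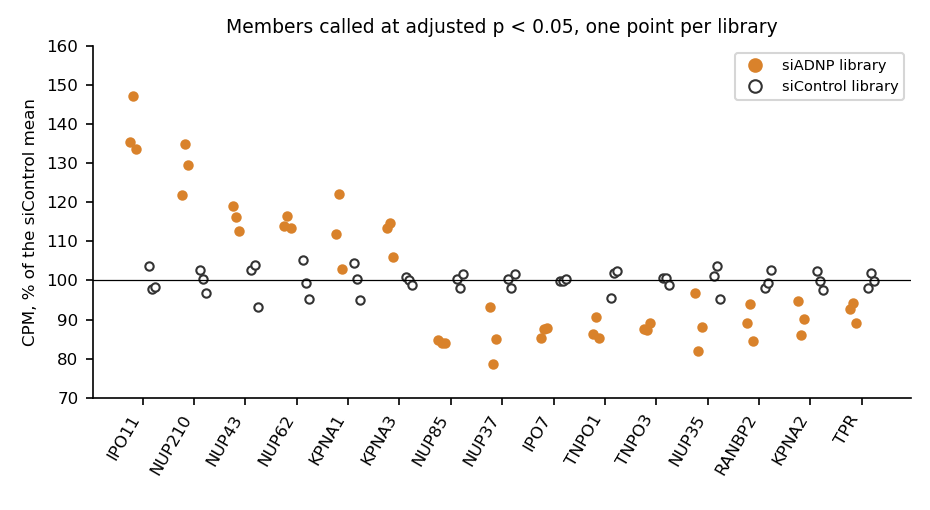
CPM of the 15 called members in each library as a percent of the siControl mean of the gene, with filled points for siADNP and open points for siControl libraries. For IPO11 and NUP210 the points of the groups lie well apart, while for KPNA1 and NUP35 they overlap.

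Importin alphas are adaptors that recognise the classical nuclear localisation signal and bind cargo to importin beta. Calls went both ways, with 2 of the 6 tested higher, 1 lower and 3 not passing. Over all tested genes 14.6% were higher and 13.7% lower. KPNA2 was by far the most abundant importin alpha and was at 894, 812 and 850.3 CPM under siADNP and 966, 942 and 921 CPM under siControl. The groups did not overlap (852 ± 41.2 against 943 ± 22.5 CPM, SD, n = 3 each), and KPNA2 fell (log2 fold change -0.15 ± 0.047 SE, adjusted p = 0.0166). The call was lost in 5 of 16 alternatives, among them leaving out siADNP replicate 2 (adjusted p = 0.0687), siControl replicate 1 (0.0933) or siControl replicate 2 (0.0570) and upper-quartile scaling (0.0522), in a range of 0.00711 to 0.0933. KPNA3 was at 167, 168 and 155 CPM under siADNP and 148, 147 and 145 CPM under siControl. Every siADNP library was above every siControl library (163 ± 6.98 against 147 ± 1.62 CPM, SD, n = 3 each), and KPNA3 rose (log2 fold change 0.16 ± 0.052 SE, adjusted p = 0.0206). Its call needed most of the libraries: it was lost without siADNP replicate 1 (0.0625) or 2 (0.0770), without any 1 of siControl replicates 1 to 3 (0.0533, 0.0573 and 0.0753), and with DESeq2 (0.0612), in a range of 0.00112 to 0.0770. KPNA1 was at 98.9, 108 and 91.0 CPM under siADNP and 92.4, 88.8 and 83.9 CPM under siControl. The replicate 3 library of siADNP fell inside the siControl range (99.3 ± 8.49 against 88.4 ± 4.25 CPM, SD, n = 3 each). KPNA1 was called higher (log2 fold change 0.17 ± 0.062 SE, adjusted p = 0.0366), but not without siADNP replicate 1 (adjusted p = 0.0663) or 2 (0.268), without siControl replicate 2 (0.0773) or 3 (0.165), or with DESeq2 (0.138), in a range of 0.00337 to 0.268.

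Summed over the importin alphas per kilobase of transcript, KPNA2 took 79.6%, 77.4% and 79.3% under siADNP and 81.4%, 80.9% and 80.8% under siControl. Every siADNP share was below every siControl share. The share of KPNA3 was 8.14%, 8.81% and 7.96% against 6.85%, 6.93% and 6.98%, and that of KPNA1 was 3.16%, 3.70% and 3.05% against 2.80%, 2.74% and 2.65%. These shares sum to a fixed total and restate the values of the 3 called genes. KPNA4 was at 72.7, 78.8 and 80.3 CPM under siADNP and 87.6, 80.6 and 82.5 CPM under siControl, with all siADNP values just below the siControl values, and did not pass (log2 fold change -0.11 ± 0.062 SE, adjusted p = 0.179). KPNA6 (-0.050) and KPNA5 (-0.035) had overlapping groups, and KPNA5 was the least abundant tested member, at 22.1, 22.9 and 20.6 CPM under siADNP and 19.7, 25.4 and 21.9 CPM under siControl. Its SE of 0.10 was the widest of the set, and its sign changed with the GC correction.

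The import receptors of the importin beta family carry cargo directly or with an adaptor. Among 10 of these, 1 was called higher (10%) and 3 lower (30%), and 6 did not pass. The shares over all tested genes were 14.6% and 13.7%. IPO11, known for importing ubiquitin-conjugating enzymes, was at 121, 132 and 119.8 CPM under siADNP and 93.1, 87.8 and 88.1 CPM under siControl. The groups lay far apart for a gene of this set (124 ± 6.63 against 89.7 ± 2.93 CPM, SD, n = 3 each). IPO11 rose to 139% of control (log2 fold change 0.48 ± 0.057 SE, adjusted p = 4.34e-08), the largest change and the smallest p of all members, and the call held in all 16 alternatives. LRRC70 shares exons with IPO11 on the same strand. Reads in these exons may be missing from the count, and how the counting treated them is not given.

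IPO7, which imports ribosomal proteins and, with KPNB1, linker histone, was at 512, 525 and 526 CPM under siADNP and 598, 598 and 602 CPM under siControl. The siControl libraries lay close together and all siADNP libraries were far below them (521 ± 7.79 against 599 ± 2.56 CPM, SD, n = 3 each). IPO7 fell (log2 fold change -0.20 ± 0.045 SE, adjusted p = 0.000753). With the GC correction its log2 fold change was -0.12, and the call was lost in 1 of 16 alternatives (adjusted p range 2.82e-05 to 0.0711). TNPO1, the receptor for PY-type localisation signals of RNA-binding proteins such as HNRNPA1, was at 423, 445 and 418 CPM under siADNP and 468, 500.2 and 502 CPM under siControl. The groups did not overlap (429 ± 14.1 against 490.1 ± 18.9 CPM, SD, n = 3 each), and the fall of TNPO1 (log2 fold change -0.19 ± 0.047 SE, adjusted p = 0.00209) was lost with the GC correction (adjusted p = 0.0658, range over the alternatives 0.000500 to 0.111). TNPO3, the receptor for serine- and arginine-rich splicing factors, was at 203, 202 and 206 CPM under siADNP and 233, 233 and 229 CPM under siControl. The groups stood apart by more than the SD of either (204 ± 2.21 against 232 ± 2.46 CPM, SD, n = 3 each), and TNPO3 fell (log2 fold change -0.18 ± 0.048 SE, adjusted p = 0.00356) in the main test and in all 16 alternatives.

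KPNB1, importin beta itself, was at 738, 794 and 748 CPM under siADNP and 757, 711 and 758 CPM under siControl. Its libraries were mixed between the groups, and it did not pass (log2 fold change 0.035 ± 0.047 SE, adjusted p = 0.612). The close paralogue of TNPO1, TNPO2, did not pass either (log2 fold change 0.064 ± 0.056 SE, adjusted p = 0.411), and its groups overlapped. IPO4 (0.017), IPO5 (-0.023), IPO8 (-0.012) and IPO9 (-0.013) had log2 fold changes close to 0 with overlapping groups, and their signs changed with the GC correction. The SE of these genes was 0.046 to 0.053 on the log2 scale.

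No export or two-way receptor of the 7 tested was called by edgeR in either direction, nor by DESeq2 or by limma. At an unadjusted p under 0.05 edgeR gave 1, IPO13. XPO1, the general exportin for leucine-rich export signals, was at 583, 656 and 638 CPM under siADNP and 629, 624 and 658 CPM under siControl. The lowest and the second highest of the 6 values were both siADNP libraries, and XPO1 did not pass (log2 fold change -0.025 ± 0.048 SE, adjusted p = 0.742). Its sign changed with the GC correction. XPO5, the exportin of microRNA precursors, was at 179, 193 and 179 CPM against 191, 183 and 194 CPM and did not pass (log2 fold change -0.045 ± 0.051 SE, adjusted p = 0.547). XPOT, the tRNA exportin, was at 284, 317 and 311 CPM under siADNP and 284, 296 and 289 CPM under siControl. Its groups overlapped, and the difference (log2 fold change 0.069 ± 0.049 SE, adjusted p = 0.314) passed only with the GC correction (adjusted p = 0.0375, range 0.0375 to 0.650). For XPO7 all siADNP values (152, 164 and 158 CPM) were below all siControl values (169, 165 and 168 CPM) without passing (log2 fold change -0.078 ± 0.051 SE, adjusted p = 0.262). XPO4 (0.013) and XPO6 (-0.0038) had overlapping groups, and both changed sign in some alternative settings.

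IPO13, a receptor that works in both directions, was the least abundant member of this group, at 29.7, 27.1 and 27.9 CPM under siADNP and 34.0, 31.4 and 30.6 CPM under siControl. The groups did not overlap, but the SE was wide for the size of the difference and IPO13 did not pass (log2 fold change -0.18 ± 0.086 SE, adjusted p = 0.110). With the GC correction its log2 fold change was -0.26 and it passed (adjusted p = 0.0194, range over the alternatives 0.0194 to 0.325).

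RAN, the GTPase on which both directions of transport depend, was at 800.1, 726 and 736 CPM under siADNP and 764, 764 and 766 CPM under siControl. The siControl libraries agreed closely, while the siADNP libraries lay on both sides of them (754 ± 40.3 against 765 ± 1.20 CPM, SD, n = 3 each). RAN did not pass (log2 fold change -0.021 ± 0.047 SE, adjusted p = 0.781), and its sign changed with upper-quartile scaling and with the GC correction.

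Nucleoporins and transport receptors gave like counts. Of 21 tested nucleoporins 3 rose (14.3%) and 5 fell (23.8%), and of 23 tested receptors 3 rose (13.0%) and 4 fell (17.4%). Over all tested genes 14.6% rose and 13.7% fell. With the GC correction 1 of the 21 nucleoporins was called lower in place of 5. The difference between the classes was not tested. Their median log2 fold changes were -0.024 and -0.023, and the groups did not overlap for 11 nucleoporins (52.4%) and 9 receptors (39.1%), beside 40.8% of all tested genes. In 3 of the sublists, the outer ring, the importin alphas and the import receptors, there were calls in both directions. Summed over members, nucleoporins took 4476, 4594 and 4485 CPM under siADNP and 4617, 4595 and 4580 CPM under siControl. The siADNP replicate 2 library lay within the siControl range, and the siADNP mean was 98.3% of control. Receptors summed to 6337, 6567 and 6385 CPM against 6665, 6576 and 6682 CPM, with all siADNP sums below the siControl sums and a mean of 96.8% of control. The ratio of the nucleoporin sum to the receptor sum was 0.706, 0.6996 and 0.702 under siADNP and 0.693, 0.699 and 0.685 under siControl. Its siADNP mean was 101.5% of the siControl mean, so the balance of the classes moved by little beyond the spread between libraries.

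To compare levels between genes, CPM was divided by the length in kilobases of the longest APPRIS principal transcript in GENCODE 29. The order of the siControl levels was led by KPNA2 (384 ± 9.18 CPM per kb, SD, n = 3) and RAN (287 ± 0.451). These stood apart from the next members by more than their spread. TNPO1 (162 ± 6.23) came next, but its level depended on the transcript chosen and was 43.8 with its longest transcript. XPO1 (129.6 ± 3.79), IPO5 (122 ± 2.50) and KPNB1 (121 ± 4.37) followed. XPO1 and IPO5 differed by little more than their SDs, and IPO5 and KPNB1 by less. With their longest transcripts XPO1 and IPO5 stood at 94.0 and 88.2. IPO7 (96.8 ± 0.414) closed the run of abundant receptors. The most abundant nucleoporin was NUP85 (69.3 ± 1.21), ahead of TPR (65.7 ± 1.31) and NUP98 (62.2 ± 1.25). With the longest transcripts NUP85 (65.8) and TPR (65.7) differed by less than the SD of either. Between NUP93 (51.4 ± 1.64) and NUP54 (43.1 ± 3.04) lay 8 nucleoporins and receptors whose neighbours in the order differed by less than the sum of their SDs. The place of NUP93 and of NUP35 (51.9 ± 2.26) also depended on the transcript, at 17.1 and 30.0 with the longest. At the low end stood NUP214 (17.8 ± 0.964), KPNA1 (12.9 ± 0.623), KPNA4 (9.30 ± 0.403), IPO13 (8.22 ± 0.451) and KPNA5 (1.98 ± 0.251).

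GC content moved with the comparison across the whole table. The median transcript GC was 54.0% for all genes that rose, 43.0% for all that fell and 48.6% for the rest. Among members it was 41.0% for those that rose and 39.2% for those that fell, with 43.3% over the tested members. Across genes, which are not independent replicates, the log2 fold change correlated with GC with Pearson r = 0.28 and Spearman rho = 0.29 over 12076 genes, and with r = 0.17 and rho = 0.21 over the 45 members. Within nucleoporins r was 0.53 (rho 0.48, n = 21), and within receptors it was -0.13 (rho 0.044, n = 23). All these values share the same 6 libraries. NUP210 and NUP62 had the highest GC of the tested nucleoporins, at 58.3% and 58.4%, while IPO11, at 39.4%, was below the median of all genes. A fit with a GC offset for each library called 7 members higher and 5 lower. Of these, 9 were shared with the fit without it and 3 (NUP93, XPOT and IPO13) were not. The 6 members that lost their call were NUP35, NUP37, NUP62, RANBP2, TPR and TNPO1, 4 of them nucleoporins that had been called lower. A GC effect of the libraries and a response that follows GC cannot be told apart in these data. A call lost with the offset is thus not shown to be an artefact.

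**Figure D3:**
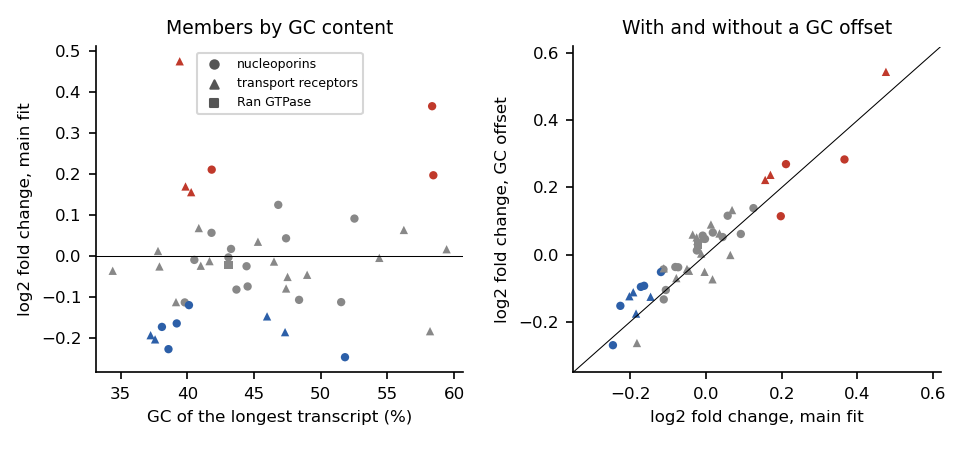
Left, log2 fold change of each tested member against the GC content of its longest transcript. Right, the log2 fold change with a GC offset against that without it, with the line of equality. Circles are nucleoporins, triangles transport receptors and the square is RAN, and red and blue mark members called higher and lower without the offset. IPO11 stays the highest point in both panels, and the points of NUP210 and NUP62 move down with the offset.

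Other genes of the same machinery have symbols outside the rule, and of 61 tested in 4 lists 6 rose (9.84%) and 8 fell (13.1%). Over all tested genes 14.6% rose and 13.7% fell, and the counts of each list are to be read against those shares. The share that fell was near that of all genes. The share that rose was somewhat below it, a difference that was not tested. The median log2 fold change of the 61 genes was -0.014. Among 10 further nucleoporins 2 rose and 2 fell (20% each). TMEM48 (NDC1), a transmembrane nucleoporin that anchors the pore, was at 178, 189 and 186 CPM under siADNP and 124, 134 and 128 CPM under siControl. The groups were far apart (185 ± 5.61 against 129 ± 5.22 CPM, SD, n = 3 each), and TMEM48 rose in the main test and in all 16 alternatives (log2 fold change 0.52 ± 0.052 SE, adjusted p = 9.12e-10). POM121, also a membrane nucleoporin, was at 72.6, 77.1 and 75.0 CPM under siADNP and 66.8, 68.1 and 56.3 CPM under siControl. It rose (log2 fold change 0.23 ± 0.068 SE, adjusted p = 0.00945), but the call was lost without siControl replicate 3 (adjusted p = 0.123), with DESeq2 (0.0540) and with the GC correction (0.0960), in a range of 0.00466 to 0.123. Its near-identical paralogue POM121C did not pass (log2 fold change 0.16 ± 0.071 SE, adjusted p = 0.0962). Reads that align to both copies may be missing from their counts. Among the 4 membrane nucleoporins tested, counting NUP210, 3 were called higher. This grouping was made after their values were seen, so the count shows nothing about membrane nucleoporins as a class.

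AHCTF1 (ELYS), which recruits the Y complex to chromatin, was at 279, 280.3 and 249 CPM under siADNP and 302, 299.7 and 297 CPM under siControl with no overlap and fell (log2 fold change -0.15 ± 0.050 SE, adjusted p = 0.0207). The call was lost without siADNP replicate 3 (adjusted p = 0.185), without siControl replicate 1 (0.0744) or 2 (0.0634), with upper-quartile scaling (0.0553) and with the GC correction (0.206), in a range of 0.00932 to 0.239. NUPL2 (NUP42), an FG nucleoporin of the cytoplasmic face, was also called lower (log2 fold change -0.21 ± 0.074 SE, adjusted p = 0.0293). That call was lost without siADNP replicate 1 (0.0749) or 2 (0.179), without siControl replicate 1 (0.169), with upper-quartile scaling (0.0580), with DESeq2 (0.129) and with the GC correction (0.174), in a range of 0.0132 to 0.182.

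Among 10 genes of the RAN cycle and further receptors, 1 rose (10%) and 2 fell (20%). RCC1, the chromatin-bound exchange factor that loads RAN with GTP, was at 163, 172 and 168 CPM under siADNP and 148, 142 and 141 CPM under siControl. With no overlap between groups, RCC1 rose in all settings tried (log2 fold change 0.22 ± 0.051 SE, adjusted p = 0.00107). RANBP6, a paralogue of IPO5, was at 39.6, 36.0 and 41.2 CPM under siADNP and 60.7, 57.6 and 56.4 CPM under siControl. No siADNP library came near the siControl range (38.9 ± 2.66 against 58.2 ± 2.18 CPM, SD, n = 3 each), and the fall of RANBP6 to 66.8% of control was the largest in the 4 lists and larger than any fall among the members (log2 fold change -0.59 ± 0.073 SE, adjusted p = 8.71e-08). It held in all 16 alternatives. RANBP3, a cofactor of XPO1, was called lower (log2 fold change -0.21 ± 0.073 SE, adjusted p = 0.0261). The call was lost without siADNP replicate 1 (adjusted p = 0.160), without siControl replicate 1 (0.0742) or 3 (0.141), with upper-quartile scaling (0.0519) and with DESeq2 (0.108), in a range of 0.00210 to 0.160. CSE1L, the exportin that returns importin alpha to the cytoplasm, did not pass (log2 fold change -0.043 ± 0.046 SE, adjusted p = 0.515).

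Of 24 tested genes of mRNA export, 1 rose (4.17%) and 2 fell (8.33%). ALYREF, an adaptor that hands mRNA to the export receptor, was at 168, 165 and 165 CPM under siADNP and 137, 126 and 128 CPM under siControl. The groups were well apart, and ALYREF rose (log2 fold change 0.35 ± 0.052 SE, adjusted p = 2.54e-06). GLE1, the activator of the helicase DDX19 at the pore, was at 95.8, 97.3 and 108 CPM under siADNP and 118, 115 and 116 CPM under siControl and fell (log2 fold change -0.21 ± 0.057 SE, adjusted p = 0.00451). THOC2, the scaffold of the THO complex, fell as well (log2 fold change -0.18 ± 0.048 SE, adjusted p = 0.00455), and that call was lost with the GC correction (adjusted p = 0.0929, range 0.00261 to 0.135).

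In the list of the lamina and envelope, 2 of 17 rose and 2 fell (11.8% each). LMNA, the gene of the A-type lamins, was at 219.6, 213 and 215 CPM under siADNP and 264, 282 and 289 CPM under siControl. LMNB2, a B-type lamin, was at 406, 401 and 399 CPM under siADNP and 317, 291 and 308 CPM under siControl. For both, the groups were far apart and in opposite order: LMNA fell (log2 fold change -0.37 ± 0.049 SE, adjusted p = 4.42e-07) and LMNB2 rose (log2 fold change 0.40 ± 0.048 SE, adjusted p = 3.68e-08). LMNB1, the other B-type lamin, did not pass (log2 fold change -0.052 ± 0.050 SE, adjusted p = 0.471). SUN2, an inner membrane protein that links the lamina to the cytoskeleton, fell (log2 fold change -0.26 ± 0.074 SE, adjusted p = 0.00717), and the call was lost without siControl replicate 1 (adjusted p = 0.0551, range 0.000304 to 0.0551). EMD (emerin) was called higher although the groups overlapped (log2 fold change 0.21 ± 0.078 SE, adjusted p = 0.0442), and the call was lost in 8 of 16 alternatives. Among these were leaving out siADNP replicate 1 (adjusted p = 0.107) or 2 (0.144) and siControl replicate 1 (0.103) or 3 (0.230), within a range of 0.0178 to 0.309.

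**Figure D4:**
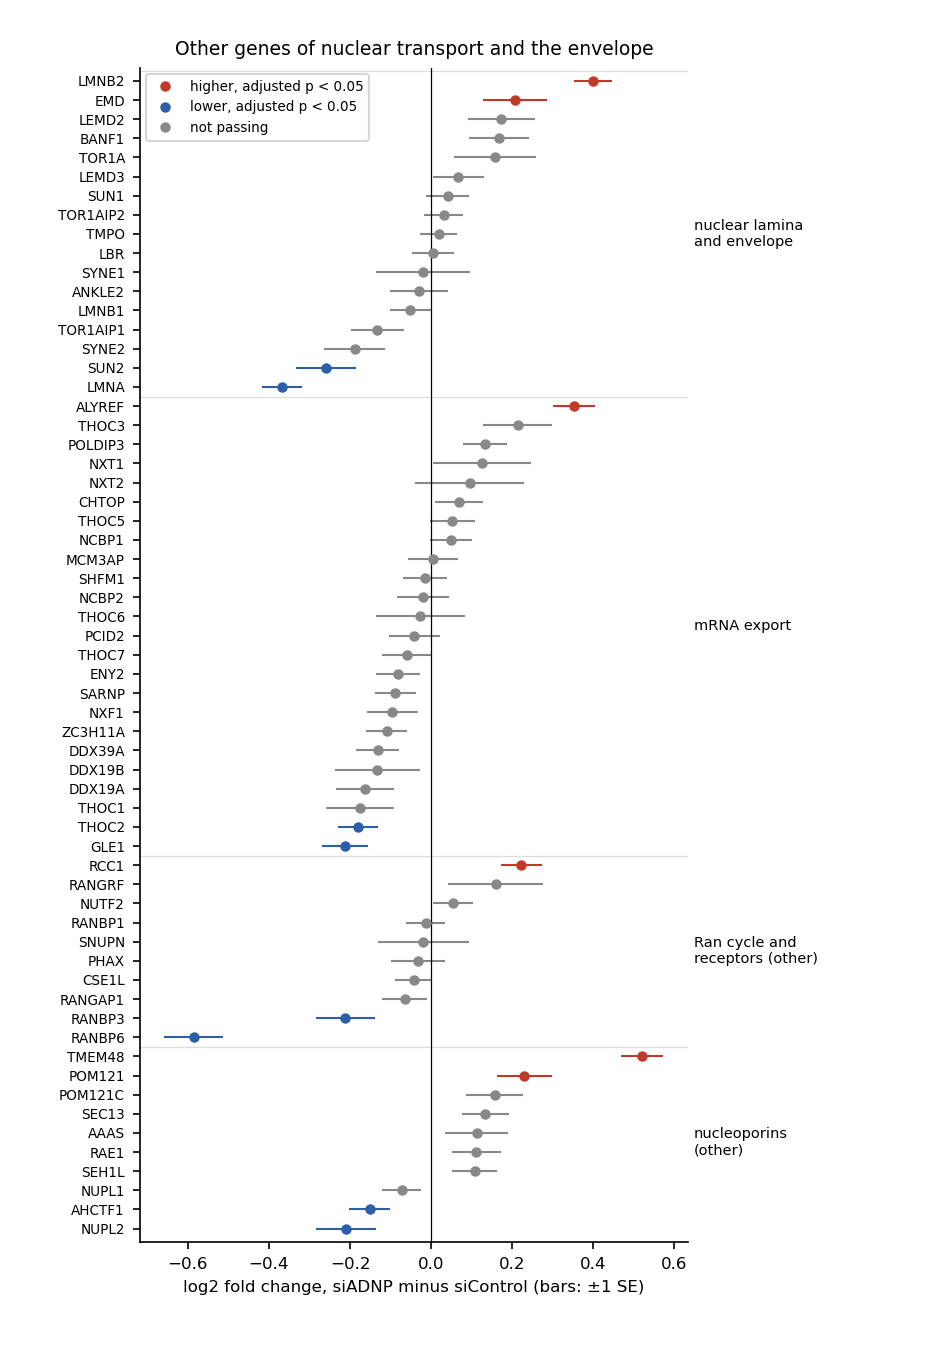
Log2 fold change, siADNP minus siControl, of the 61 tested genes of the pore, the RAN cycle, mRNA export and the envelope whose symbols lie outside the rule, with bars of 1 SE. Red points rose, blue points fell and grey points did not pass. TMEM48 (0.52) is the highest point and RANBP6 (-0.59) the lowest.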

How the data were processed

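RNA was sequenced from 6 libraries of HCT116 cells, 3 siADNP and 3 siControl. The deposited table holds raw read counts per gene symbol. Per the submitters' processing notes, the authors used STAR, HTSeq and DESeq2 with the hg19 build. The annotation, the strand setting and the versions are unknown here (not given in the sources used here), and a gene's count may hold reads of a neighbour that overlaps it on either strand. Reads in genes made up 26.4% to 27.2% of the siADNP libraries and 27.7% to 28.3% of the siControl libraries. Lines naming no gene were left out: no feature, not unique (17.4% to 17.9%) and ambiguous (0.455% to 0.500%). The no feature lines made up 54.4% to 55.7% under siADNP and 53.5% to 54.3% under siControl. In both shares the groups did not overlap, and the part of this difference in the results was not tested. A second deposited table holds transformed values on a log2-like scale, which differed by at most 0.0148 from a DESeq2 variance-stabilizing transformation recomputed from the counts, and was used only in an alternative test with limma 3.58.1.

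The test on the counts was the quasi-likelihood test of edgeR 4.0.16 (R 4.3.3, TMM, filterByExpr with a minimum count of 10, glmQLFit and glmQLFTest, two-sided), siADNP minus siControl, with Benjamini-Hochberg adjustment over 12489 genes and calls at an adjusted p under 0.05. The script was tested on simulated data. Alternatives were RLE, upper-quartile and library-total scaling, no low-count filter, a filter of 1 CPM in 3 libraries, DESeq2 1.42.0, a GC offset per library (smooth of log2 counts on GC of the longest transcript, GENCODE 29, available for 96.7% of tested genes), a replicate block, both together, and leaving out each library. No 2 libraries held identical counts. Library values were printed for called members, members whose call changed and the extremes of each class, and of each other list up to 4 called genes in each direction. Members and lists were chosen with earlier results of these data known. Promoter windows came from RefSeq and figures from matplotlib 3.10.9.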

Additional observations from a re-analysis of the deposited data

How the results depend on the processing

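Of 720 values, 45 members in each of 16 alternatives, 606 kept their direction and side of the threshold. In 50 values, for 11 members, the call was lost, in 8, for 4 members, one was gained, and in 56, for 14 members, the sign changed, never with either value past the threshold. NUP85, NUP210, IPO11 and TNPO3 were called in all 16 alternatives, and 26 uncalled members in none. DESeq2 called 2161 of all genes (1096 higher, 1065 lower), against 3538 (1824 and 1714) in edgeR, and 11 of the 15 members, with 3 nucleoporins lower and 1 receptor higher. Leaving out each library in turn gave 3 to 6 members higher and 6 to 9 lower, 5 to 8 nucleoporins (2 to 5 lower) and 4 to 7 receptors (1 to 3 higher). The lowest count of members higher, 3, came without siControl replicate 3. With upper-quartile scaling and with library totals 3 nucleoporins were called lower in each. The GC offset gave 5 members lower and 4 nucleoporins, 1 of them lower. Upper-quartile scaling moved the median of all genes to 0.023.

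Deviations of same-numbered libraries from their group means showed correlations near 0 (0.024, -0.035 and -0.029). As such deviations hold counting noise, these values cannot decide whether those libraries were prepared together, and the labels do not say. With the replicate block 6 members were higher and 7 lower, 3 of them nucleoporins lower, and NUP35 (adjusted p = 0.0545) and TPR (0.0874) lost their calls. The GC offset with replicate block gave 3 members lower, 3 nucleoporins (1 lower) and 2 receptors lower, and IPO7 (0.0711) and KPNA2 (0.0735) were lost only with this correction among those for GC.

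Sign changes concerned uncalled log2 fold changes near 0. With upper-quartile scaling these were IPO5 0.0018, IPO8 0.013, IPO9 0.012, NUP107 0.016, NUP205 0.00043, NUP50 0.022, RAN 0.0041 and XPO6 0.021. With library totals they were IPO8 0.0010, NUP107 0.0038, NUP50 0.0099 and XPO6 0.0086. With the GC offset, and with it plus the replicate block, they were IPO4 -0.074 and -0.073, IPO5 0.040 and 0.041, IPO8 0.047 and 0.047, IPO9 0.0029 and 0.0025, KPNA5 0.059 and 0.061, NUP107 0.056 and 0.056, NUP205 0.012 and 0.012, NUP50 0.047 and 0.046, RAN 0.029 and 0.027, TNPO2 -0.0014 and -0.0014, and XPO1 0.051 and 0.050. Leaving out each library in turn gave ranges of -0.021 to 0.066 for IPO4, -0.044 to 0.011 for IPO8, -0.032 to 0.016 for IPO9, -0.12 to 0.075 for KPNA5, -0.057 to 0.046 for NUP107, -0.023 to 0.040 for NUP160, -0.048 to 0.0023 for NUP205, -0.020 to 0.020 for NUP50, -0.065 to 0.0056 for RAN, -0.061 to 0.024 for XPO1, -0.035 to 0.084 for XPO4 and -0.021 to 0.0083 for XPO6. The cause of these changes was not tested.

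With 3 libraries a group and standard errors of 0.045 to 0.10 on the log2 scale, changes of the size of most members lie near the limit of detection, and a member that did not pass is not shown to be unchanged. The 2 members with few reads could not be judged at this depth.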
